A study of Mus musculus with 2 samples.

Results

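The genes described here are 10 parts of the machinery with which bile duct cells secrete and modify bile: Cftr, Sctr, Slc4a2, Aqp1, Itpr1, Itpr2, Itpr3, Slc10a2, Ano1 and Gpbar1. They were picked by gene symbol, and each matched 1 row of the 55415 genes listed. The data are transcript counts of individual mouse liver cells labelled as biliary epithelial cells. Of the 10, 9 had at least 1 UMI (unique molecular identifier, a count of 1 captured transcript molecule), 7 reached 200 UMIs over the biliary cells of both libraries and 5 reached 1000. The study holds 1 library labelled Sox9cKO, described by the series as deficient in the transcription factor Sox9, and 1 control library labelled Sox9con. The cells were fixed and then barcoded by pooling and splitting. Sox9cKO and Sox9con stand here for the libraries so labelled. The strain, age, number of animals per library and the driver of the Sox9 deletion are not given in the sources used here. The gene identifiers are ENSMUSG00000041301 (Cftr), ENSMUSG00000026387 (Sctr), ENSMUSG00000028962 (Slc4a2), ENSMUSG00000004655 (Aqp1), ENSMUSG00000030102 (Itpr1), ENSMUSG00000030287 (Itpr2), ENSMUSG00000042644 (Itpr3), ENSMUSG00000023073 (Slc10a2), ENSMUSG00000031075 (Ano1) and ENSMUSG00000064272 (Gpbar1). With 1 library per genotype there is no replicate and no test, every interval covers counting error only, and genotype, library and first-round wells cannot be told apart.

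Bile duct cells dilute and alkalinise the bile that hepatocytes release. The hormone secretin acts on its receptor Sctr, cyclic AMP rises, the apical chloride channel Cftr opens, and the anion exchanger Slc4a2 trades the chloride for bicarbonate while water follows through the water channel Aqp1. A second route runs through calcium: the inositol trisphosphate receptors Itpr1, Itpr2 and Itpr3 release calcium from internal stores, and calcium opens the chloride channel Ano1. Bile acids enter the cell through the sodium-dependent transporter Slc10a2 and can be sensed at its surface by the receptor Gpbar1.

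The promoters of 4 members are shown as 250 bases before the RefSeq start, 5′ to 3′ on the strand of the gene. Coordinates are those of GRCm38.p6, not of the build the counts were made on. Capitals mark matches, on either strand, to 6 motifs: the GC box GGGCGG, the CCAAT box CCAAT, the TATA box TATAAA, the cyclic AMP response core TGACG, part of an HNF1 site GTTAAT and the SOX core ACAATG. The Cftr window lies at chr6:18170437-18170686 (+), that of Ano1 at chr7:144738574-144738823 (-), that of Itpr2 at chr6:146502224-146502473 (-) and that of Slc10a2 at chr8:5105288-5105537 (-).
Cftr: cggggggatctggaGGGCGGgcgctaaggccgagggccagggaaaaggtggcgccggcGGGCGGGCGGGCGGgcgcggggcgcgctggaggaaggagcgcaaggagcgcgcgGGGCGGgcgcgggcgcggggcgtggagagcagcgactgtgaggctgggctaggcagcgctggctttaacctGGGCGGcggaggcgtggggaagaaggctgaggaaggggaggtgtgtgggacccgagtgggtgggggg
Ano1: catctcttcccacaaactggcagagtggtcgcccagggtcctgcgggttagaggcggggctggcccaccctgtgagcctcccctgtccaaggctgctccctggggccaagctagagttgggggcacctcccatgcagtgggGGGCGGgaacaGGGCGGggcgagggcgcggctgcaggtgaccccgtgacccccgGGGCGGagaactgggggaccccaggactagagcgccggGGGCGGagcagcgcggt
Itpr2: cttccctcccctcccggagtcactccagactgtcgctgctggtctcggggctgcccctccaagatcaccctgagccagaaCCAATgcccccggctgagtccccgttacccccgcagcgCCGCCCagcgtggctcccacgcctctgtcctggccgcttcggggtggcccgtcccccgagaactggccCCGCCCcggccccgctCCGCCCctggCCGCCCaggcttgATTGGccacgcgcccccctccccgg
Slc10a2: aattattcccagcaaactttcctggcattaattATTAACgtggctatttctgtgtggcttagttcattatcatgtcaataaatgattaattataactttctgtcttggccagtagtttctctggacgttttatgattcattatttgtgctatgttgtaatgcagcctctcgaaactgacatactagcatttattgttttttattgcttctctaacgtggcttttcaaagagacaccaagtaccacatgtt
The Cftr window held 6 GC boxes, some of them overlapping, at 76.4% G and C, and the Ano1 window held 4 at 72.0%. The Itpr2 window held 4 GC boxes on the opposite strand and 2 CCAAT boxes at 74.4% G and C. The Slc10a2 window had 34.4% G and C and a single match, to the HNF1 part. Over all 32851 promoters of that table the median was 52.4% G and C, 32.7% held a GC box, 33.8% a CCAAT box, 12.4% a TATA box, 17.8% the cyclic AMP core, 6.43% the HNF1 part and 10.7% the SOX core. A match is a description of letters and not evidence of a bound site. The table holds 8 of the 10 members, without Itpr1 and Sctr. Of the members not shown, Aqp1 and Itpr3 had 1 GC box each, and the windows of Gpbar1 and Slc4a2 held 0 matches to any of the 6 motifs.

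The deposited libraries held 2740 cells with 14856321 UMIs (Sox9cKO) and 3622 cells with 12811243 UMIs (Sox9con), at medians of 5020 and 3161 UMIs a cell, and shared 0 cell barcodes. Clusters were made without the 10 members, their partner genes and Sox9. Biliary clusters held 2602 and 3368 of the kept cells, each with 9 of 10 biliary markers at 50 CPM (counts of a gene scaled to the library's or cluster's UMIs) or more, and a cluster led by Selp, Cdh5 and Kdr with all 10 endothelial markers held 85 and 119 cells. These endothelial-like cells also had 7 and 8 of the 10 biliary markers at 50 CPM or more, summing to 1399.7 and 1956 CPM. Sox9 itself stood at 122 and 145 CPM in the biliary cells, and over the 20 ways to set 1 well of each library side by side it was lower in Sox9cKO in 10 and higher in 10, so that it does not separate the labels. Hepatocyte markers summed to 948 CPM in the library labelled Sox9cKO and 458 in the other, with 2 of 10 at 50 or more and Ugt2b1 at 0, and biliary markers to 8829 and 14532 CPM; their part in any difference was not tested. The libraries fell into different clusters: clusters 0 (led by Car4 and Ly6a) and 1 (Adgrv1, Ctnna2) held 1485 and 921 of the Sox9con cells, while clusters 2 (Il18r1, Msln), 4 (Medag, Slit3) and 5 (Hp, Serpina1b) held 665, 676 and 554 of the Sox9cKO cells, with 2 and 1 Sox9con cells in clusters 4 and 5. Clusters 3 (Muc6, Bcl11a), 6 (Ltf, Anxa10, Muc4) and 7 (Scin, Dnah12) were filled from both.

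Ano1 was the most abundant member and Gpbar1 was not detected. Per kilobase of exon in the GENCODE M21 gene models, the biliary level of Ano1 was 96.7 CPM in Sox9cKO and 95.1 in Sox9con. Cftr followed at 28.6 and 42.9, and Itpr3 at 17.4 and 12.7. Next came Slc10a2 (7.35 and 7.09), Itpr1 (7.16 and 5.85) and Itpr2 (6.56 and 8.19), whose order differed between the libraries. Slc4a2 (2.88 and 3.30), Sctr (2.07 and 1.55) and Aqp1 (0.794 and 3.72) were lowest. Reverse transcription used random hexamers as well as oligo(dT), and whether reads in introns were counted is not stated. Per kilobase of the whole gene the order changed: Itpr3 (2.41) stood above Cftr (1.46) in the Sox9cKO library, and Slc4a2 (1.40 and 1.60) stood above Slc10a2 (1.38 and 1.33), Itpr1 (0.388 and 0.317) and Itpr2 (0.247 and 0.308) in both. Strand use is not stated either, and antisense or embedded genes lie within Cftr (Gm15592, Gm15595), Itpr1 (Gm44040), Itpr2 (Gm15720), Itpr3 (Itpr3os), Ano1 (Gm44930) and Slc4a2 (Fastk), so reads could be split between them.

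Cftr, the chloride channel of the cyclic AMP route, was lower in the library labelled Sox9cKO. It gave 3193 UMIs or 222 CPM in its biliary cells (95% Poisson interval 214 to 230) and 4055 UMIs or 333 CPM in the Sox9con cells (323 to 344). The 5 Sox9cKO wells gave 257 (A11), 192 (A12), 246 (B1), 205 (B2) and 229 (B3) CPM. The 4 Sox9con wells gave 299 (D9), 385 (D10), 372 (D11) and 298 (D12). Every Sox9cKO well lay below every Sox9con well. The log2 ratio of Sox9cKO over Sox9con was -0.59 (exact conditional binomial interval -0.65 to -0.52). With equal weight for each cluster that both libraries filled it was -0.13, and within clusters its sign varied: 0.38 in cluster 0, 0.28 in cluster 2, 0.48 in cluster 6, but -0.38 in cluster 1 and -1.08 in cluster 7.

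Itpr2 was the other member with at least 200 UMIs whose wells did not overlap, where 16.0% of the 9327 genes tested had wells that did not. This receptor is a calcium release channel, and it stood at 97.2 CPM in the Sox9cKO library (wells A11 to B3 at 107, 86.0, 103, 89.1 and 107) and 121 in the Sox9con library (wells 117, 120.0, 130.1 and 121). The log2 ratio was -0.32 (-0.43 to -0.21), and across the settings tried it ran from -0.36 to -0.17. Within clusters it was 0.16 in cluster 0, -0.03 in cluster 1, -0.27 in cluster 2 and 0.04 in cluster 6. It was -0.56 in clusters 3 and 7, and only the interval of cluster 3 left out 0. None of the 7 members tested was 2-fold apart between the libraries, against 4.0% of all genes tested (1.80% lower and 2.20% higher in the library labelled Sox9cKO). Their median log2 ratio was 0.02, that of all genes -0.07, and median-ratio scaling as in DESeq2 moved the latter to 0.08.

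The other calcium release channels stood higher in the library labelled Sox9cKO, with overlapping wells. Itpr3 gave 157 CPM in Sox9cKO cells (wells 116, 167, 147, 182 and 156) and 115 in Sox9con cells, a log2 ratio of 0.45 (0.36 to 0.55). Among the Sox9con wells, D9 gave 160.1 while D10, D11 and D12 gave 86.6, 88.3 and 103. Without D9, which also held 113 of the 207 Sox9con cells of cluster 2, the log2 ratio of Itpr3 was 0.75. Itpr1 gave 131 and 107 CPM (wells 112 to 148 and 94.9 to 115), a log2 ratio of 0.29 (0.19 to 0.40) that turned to -0.22 with equal weight of clusters. Equal weight also left out clusters 4 and 5, with 676 and 554 Sox9cKO cells, and cluster 5 held Itpr1 at 270 CPM. The cells compared thus changed as well as their weight.

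**Figure D1:**
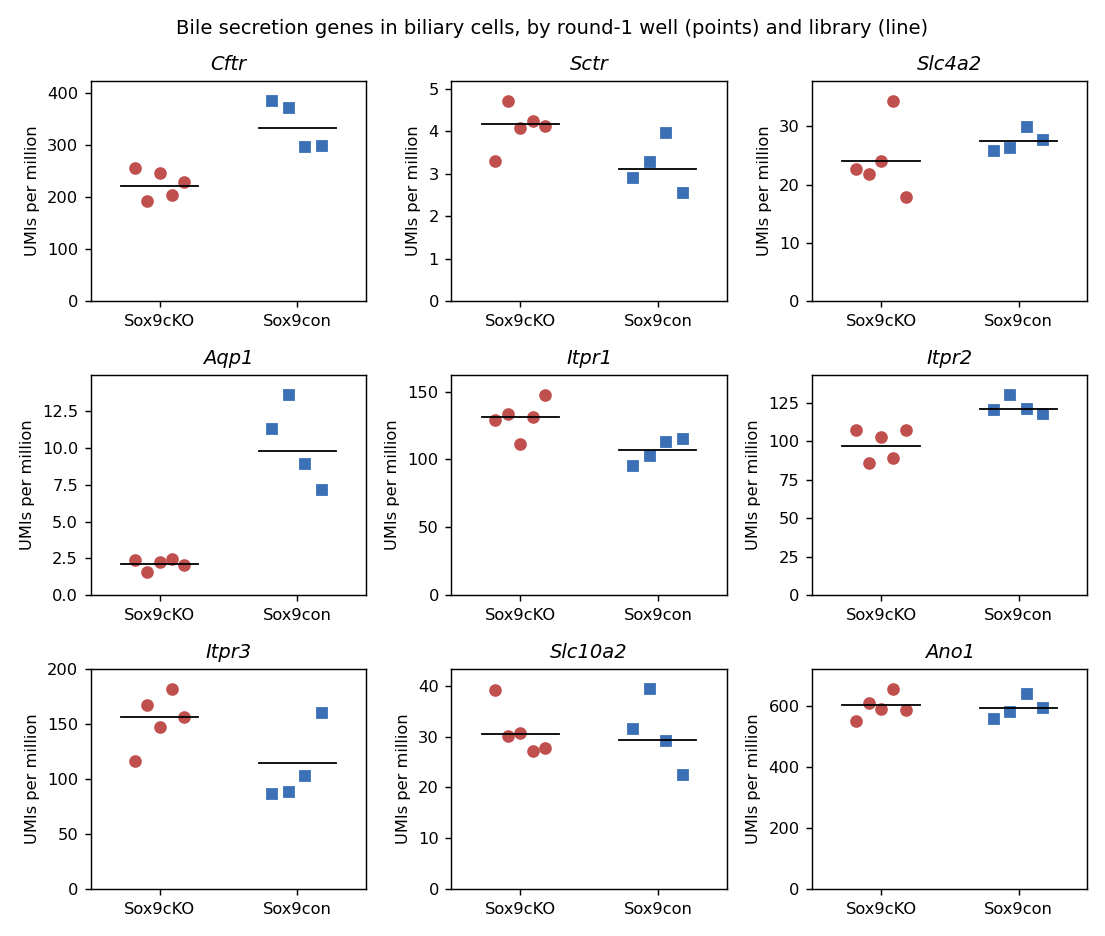
Level of 9 members in biliary cells (y axis, CPM of the biliary UMIs, linear from 0) in the 5 first-round wells of the Sox9cKO library (red circles) and the 4 of the Sox9con library (blue squares), with the library's value as a line; wells are parts of 1 library and not replicates. The Cftr wells lie between 192 and 257 in the former and between 298 and 385 in the latter, and the Ano1 wells overlap at 553 to 658 against 558 to 641.

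Summed over all biliary cells, Ano1, Slc10a2 and Slc4a2 had similar levels in both libraries. Ano1 stood at 604 CPM (Sox9cKO) and 594 (Sox9con), a log2 ratio of 0.02 (-0.02 to 0.07), with overlapping wells. Within cluster 7 it stood at 569 and 195 CPM, a log2 ratio of 1.54 (1.17 to 1.92). Slc10a2, the bile acid importer, stood at 30.5 and 29.4, a log2 ratio of 0.05 (-0.15 to 0.26), with -1.32 (-2.13 to -0.59) in cluster 3 and 1.58 (0.28 to 2.74) in cluster 1. Slc4a2, the chloride and bicarbonate exchanger, stood at 24.0 and 27.5, a log2 ratio of -0.19 (-0.42 to 0.03) that was 0.20 with equal weight of clusters. The secretin receptor Sctr was rare, with 60 UMIs (4.17 CPM) in Sox9cKO cells and 38 UMIs (3.12) in Sox9con cells. Its log2 ratio of 0.41 had an interval of -0.19 to 1.04, and was 1.29 with equal weight of clusters. The bile acid receptor Gpbar1 had 0 UMIs in all 6362 deposited cells, as did 29053 of the listed genes, and a count of 0 allows up to 0.209 and 0.247 CPM in the biliary cells.

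As shares of cells, with each cell thinned to 2000 UMIs and shallower cells left out (139 Sox9cKO and 564 Sox9con cells), Ano1 was found in 47.4% of Sox9cKO and 47.8% of Sox9con biliary cells. Cftr was found in 26.9% (exact binomial interval 25.1 to 28.7) and 32.5% (30.7 to 34.2). Unthinned, the Cftr shares were 42.7% and 42.0%, at median depths that differed. Itpr3 was found in 26.2% and 18.6%, Itpr1 in 17.5% and 16.4%, and Itpr2 in 16.2% and 19.7%. Slc10a2 (5.81% and 4.60%), Slc4a2 (4.47% and 5.81%), Aqp1 (0.528% and 1.07%) and Sctr (0.893% and 0.535%) were found in few cells. The matching shares among endothelial-like cells, of which 56 and 73 were deep enough, were 7.14% and 5.48% for Ano1 and 5.36% and 2.74% for Cftr. Unthinned shares were 62.2% and 56.7% for Ano1 in biliary cells and 5.88% and 8.40% in endothelial-like cells.

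Biliary and endothelial-like cells split the members. The part of the biliary marker transcripts found in endothelial-like cells in these ratios was not tested. Cftr, Itpr3, Slc10a2 and Ano1 were at least 2-fold higher in biliary cells in both libraries, 4 of the 10 members against 20.7% of the 9483 genes tested. Aqp1, Itpr1 and Itpr2 were at least 2-fold higher in endothelial-like cells in both, 3 members against 9.88% of those genes. Ano1 stood at 604 CPM in biliary against 64.8 in endothelial-like cells of the Sox9cKO library, a log2 ratio of 3.22 (2.54 to 4.0), and at 594 against 81.5 in the Sox9con library, 2.86 (2.35 to 3.43). The endothelial-like level of Cftr rested on 3 UMIs in the first library, with a log2 ratio of 4.27 (2.73 to 6.56), and on 17 UMIs in the second, 2.85 (2.17 to 3.63).

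Itpr3 stood at 57.2 and 40.7 CPM in endothelial-like cells. Its log2 ratios of biliary over endothelial-like were 1.45 (0.73 to 2.29) and 1.49 (0.76 to 2.33). Slc10a2 had 1 UMI there in each library, with ratios of 2.98 (0.52 to 8.31) and 3.40 (0.95 to 8.75). Itpr1 was higher in endothelial-like cells, at 461 and 437 CPM, and so was Itpr2, at 217 and 282. Their log2 ratios were -1.81 (-2.08 to -1.54) and -2.03 (-2.27 to -1.78) for Itpr1. For Itpr2 they were -1.16 (-1.54 to -0.75) and -1.22 (-1.51 to -0.92). The intervals of Itpr2, Itpr3 and Slc10a2 include differences of less than 2-fold. The receptor subtypes lay on opposite sides, Itpr3 higher in biliary and Itpr1 and Itpr2 in endothelial-like cells. A single Sox9con endothelial-like cell held 55 of the 161 Itpr1 UMIs there. Slc4a2 was not 2-fold apart in both libraries (1.06 with an interval of -0.49 to 3.35, and 0.17 with -0.77 to 1.31), and Sctr had 0 UMIs in endothelial-like cells, which allows up to 11.4 and 8.15 CPM.

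**Figure D2:**
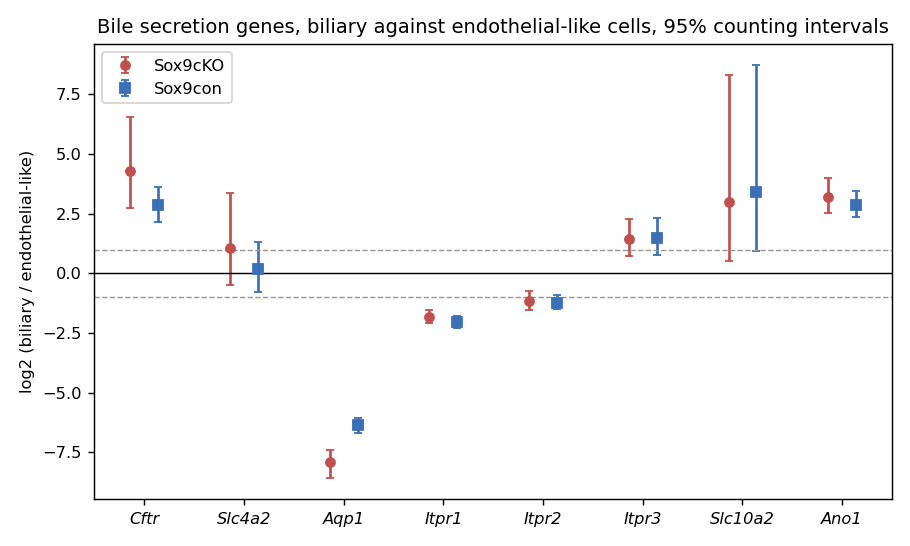
Log2 ratio of the level in biliary cells over that in endothelial-like cells (y axis) for 8 members (x axis) in the Sox9cKO library (red circles) and the Sox9con library (blue squares), with exact 95% counting intervals; the solid line marks 0 and the dashed lines 2-fold. The values of Cftr, Itpr3, Slc10a2 and Ano1 lie above the upper dashed line and those of Aqp1, Itpr1 and Itpr2 below the lower one. Intervals of Itpr2, Itpr3 and Slc10a2 cross a dashed line, and Sctr is left out because no endothelial-like cell held it.

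Aqp1 was the most endothelial of the members and also the one that differed most between libraries. Endothelial-like cells held 519 CPM in the Sox9cKO library (136 UMIs in 58 of 85 cells) and 799 in the Sox9con library (294 UMIs in 100 of 119 cells). Biliary cells held 2.09 CPM (30 UMIs) and 9.78 CPM (119 UMIs), a log2 ratio of -2.21 (-2.86 to -1.64), with fewer than the 200 UMIs set for a count of genes apart. The Sox9cKO wells gave 1.57 to 2.48 CPM and the Sox9con wells 7.16 (D9), 11.3 (D10), 13.6 (D11) and 8.94 (D12), with no overlap.

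Most of the biliary Aqp1 of the library labelled Sox9con sat in cluster 6, whose leading genes are Ltf, Anxa10 and Muc4. There 82 UMIs lay in 46 of 193 cells, 85.3 CPM, with at most 7 UMIs in a cell. Its wells gave 75.4 (D9), 85.5 (D10), 113 (D11) and 77.3 (D12). In the same cluster of the Sox9cKO library 3 UMIs lay in 112 cells, 4.32 CPM, with 0 UMIs in wells A11, A12 and B1, 1 in B2 and 2 in B3. The log2 ratio within cluster 6 was -4.13 (-6.61 to -2.71). In biliary cells outside cluster 6, Aqp1 stood at 1.97 CPM (27 UMIs) in Sox9cKO and 3.30 CPM (37 UMIs) in Sox9con.

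Endothelial transcripts were measured in the same cells. Endothelial-like cells held 4.50 Aqp1 UMIs for each 100 UMIs of the 10 endothelial markers in Sox9cKO and 6.79 in Sox9con. Biliary cells outside cluster 6 held 7.36 and 7.82, and Sox9cKO cells of cluster 6 held 5.08. Sox9con cells of cluster 6 held 373, from 82 Aqp1 UMIs beside 22 marker UMIs. As pooled here, the ratio lay between 4.50 and 7.82 in every set but Sox9con cluster 6. The Sox9cKO value for that cluster rests on 3 Aqp1 UMIs. Pooling hid unlike clusters of the Sox9con library. Cluster 3 had 11 Aqp1 UMIs, with endothelial markers at 23.2 CPM in its Aqp1-negative cells, while cluster 7 had 1 beside 303 CPM. Cluster 0 had 13 Aqp1-positive cells, 0 with an endothelial marker, while cluster 2 had 2, each with a marker. The source of Aqp1 outside cluster 6 was not tested. Of the 46 Aqp1-positive Sox9con cells of cluster 6, 31 also held Slc10a2, where the product of the shares gave 22.9. Ano1 was held by 44 of the 46, against 42.4. The median depth of these 46 cells was 6292 UMIs against 4393 in the other cells of the cluster. With every Sox9con biliary cell thinned to 2000 UMIs, 4 cells held both Aqp1 and Slc10a2 where the product within clusters gave 5.61. The ratio was 0.713 (0.194 to 1.83). It rests on 4 cells and covers all biliary clusters, so it cannot tell whether an excess in cluster 6 remains at equal depth.

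**Figure D3:**
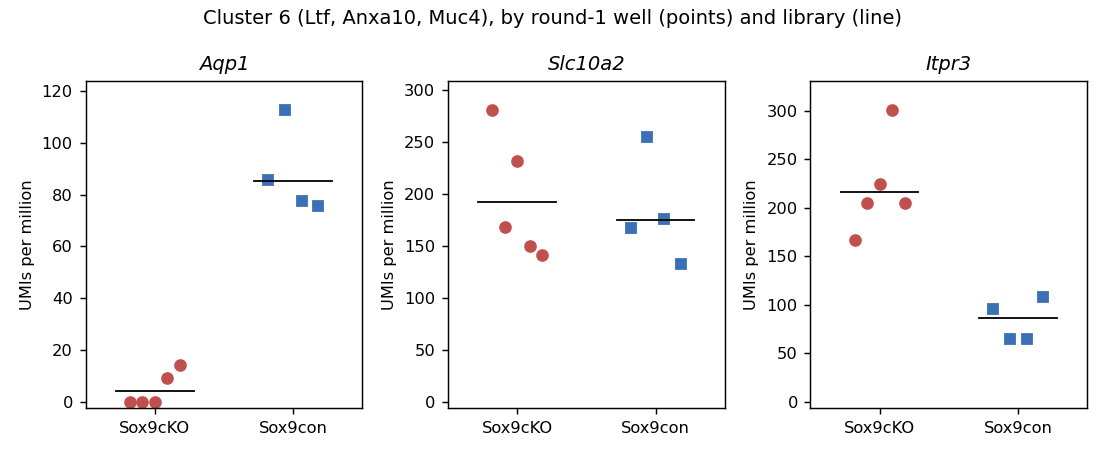
Levels of Aqp1, Slc10a2 and Itpr3 in cluster 6 (y axes, CPM within the cluster) by first-round well of the Sox9cKO library (red circles) and the Sox9con library (blue squares), with the library's value as a line. Aqp1 lies at 0 to 14.1 in the former and at 75.4 to 113 in the latter, Slc10a2 overlaps, and Itpr3 lies at 167 to 300.3 against 64.4 to 108.

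Cluster 6 also had the highest level of the bile acid importer, though most of its UMIs lay in other clusters. Slc10a2 stood there at 193 CPM in Sox9cKO and 175 in Sox9con, with 134 of its 439 and 168 of its 358 biliary UMIs. In the other clusters of at least 50 cells it ranged from 8.61 to 33.0 (Sox9cKO) and from 10.9 to 35.5 (Sox9con). In each of the 4 Sox9con wells cluster 6 exceeded clusters 0, 1 and 3. The Sox9cKO wells of cluster 6 gave 141 to 281 CPM and the Sox9con wells 133 to 255. Itpr3 in this cluster stood at 216 in Sox9cKO cells (wells 167, 205, 224, 300.3 and 205) and 86.4 in Sox9con cells (wells 108, 96.1, 65.1 and 64.4), a log2 ratio of 1.31 (0.92 to 1.73) whose wells did not overlap.

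Ano1 had the widest range among biliary clusters of the 5 members with at least 1000 UMIs in each library. Its level was 1591 CPM in cluster 3 (Muc6, Bcl11a) and 1277 in cluster 6 of the Sox9cKO library, against 78.8 in cluster 5 and 140.3 in cluster 1. In the Sox9con library it was 1331 in cluster 3, 1127 in cluster 6 and 919 in cluster 2, then 530.4 in cluster 0, 195 in cluster 7 and 132 in cluster 1. The wells of clusters 3 and 6 overlapped in the Sox9con library (1173 to 1661 against 989 to 1267), while cluster 1 stayed at 104 to 153. Ano1 was thus 20.2-fold apart between the highest and lowest Sox9cKO clusters of at least 100 cells and 10.1-fold apart in the Sox9con library. Slc10a2, with fewer UMIs, was 21.9-fold and 15.7-fold apart.

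Itpr1 ran the other way. It was highest in cluster 5 of the Sox9cKO library (270 CPM, wells 197 to 298) and in cluster 7 of the Sox9con library (282). Its lowest levels were 34.9 in cluster 3 of the former and 30.2 in cluster 6 of the latter. The ratios of highest to lowest were 7.69-fold and 9.27-fold. Over the 14 cluster and library units of at least 50 cells, Pearson's r of log2 levels was -0.89 for Itpr1 with Ano1 (-0.87 over 8 Sox9cKO units, -0.94 over 6 Sox9con units), and 0.80 for Itpr1 with Itpr2. These units share their library and its depth, and the values are a description. Itpr2 spanned 59.0 to 165 and 57.2 to 208 CPM, highest in clusters 1 and 7 and lowest in cluster 6.

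**Figure D4:**
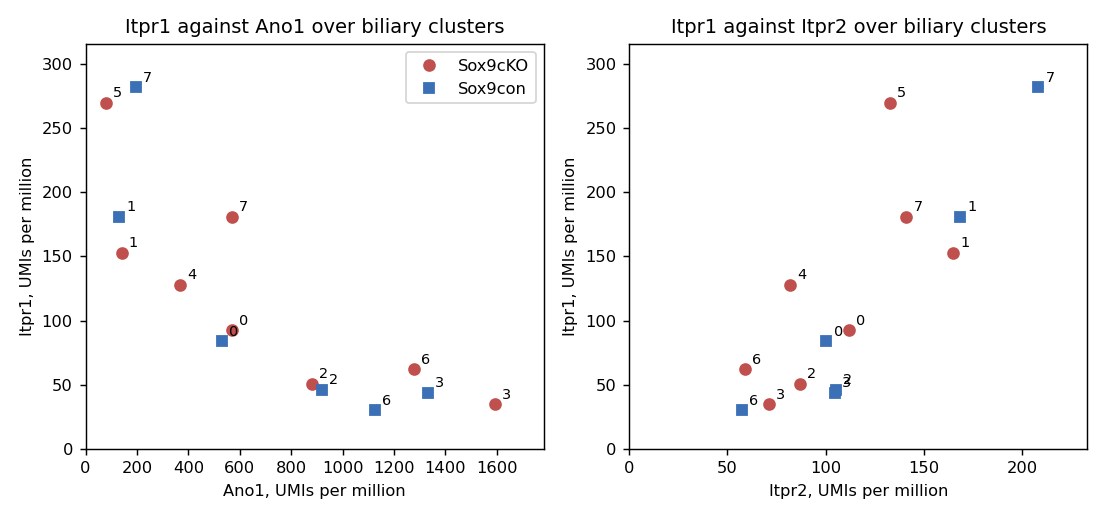
Level of Itpr1 (y axes) against Ano1 (left x axis) and Itpr2 (right x axis), all in CPM, in biliary clusters of at least 50 cells; numbers give the cluster, red circles the Sox9cKO library and blue squares the Sox9con library. Itpr1 is low where Ano1 is high (r of log2 levels -0.89 over 14 points) and high where Itpr2 is high (0.80).

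Cftr was spread over more clusters. In the Sox9con library it was highest in cluster 1 (612 CPM, wells 505 to 777) and cluster 7 (466), and lowest in cluster 0 (175, wells 153 to 213). In the Sox9cKO library it was lowest in cluster 4, led by Medag and Slit3, at 82.5 (wells 77.9 to 92.0), and stood between 209.9 and 470.5 in clusters 0 to 3 and 5 to 7. Every Sox9cKO well had more Cftr in clusters 2 and 5 than in cluster 4. Cluster 4, which held 676 Sox9cKO cells and 2 Sox9con cells, was instead high in Itpr3 (192).

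Of the 5 members with at least 1000 UMIs in a library, Cftr (4.03-fold), Itpr1 and Ano1 differed at least 4-fold among the Sox9cKO clusters of at least 100 cells, against 10.7% of 2904 such genes. Itpr1 and Ano1 did so among the Sox9con clusters, against 11.5% of 2575 genes, with Cftr at 3.49-fold. The median gene differed 1.70-fold and 1.81-fold. Itpr3 differed 2.15-fold and 1.93-fold. Sctr, with few UMIs, lay mainly in cluster 5 of the Sox9cKO library (36 of its 60 UMIs) and cluster 1 of the Sox9con library (22 of 38), both of them clusters low in Ano1. As a level it was highest in cluster 7 of both (30.9 CPM from 7 UMIs and 10.2 from 6).

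**Figure D5:**
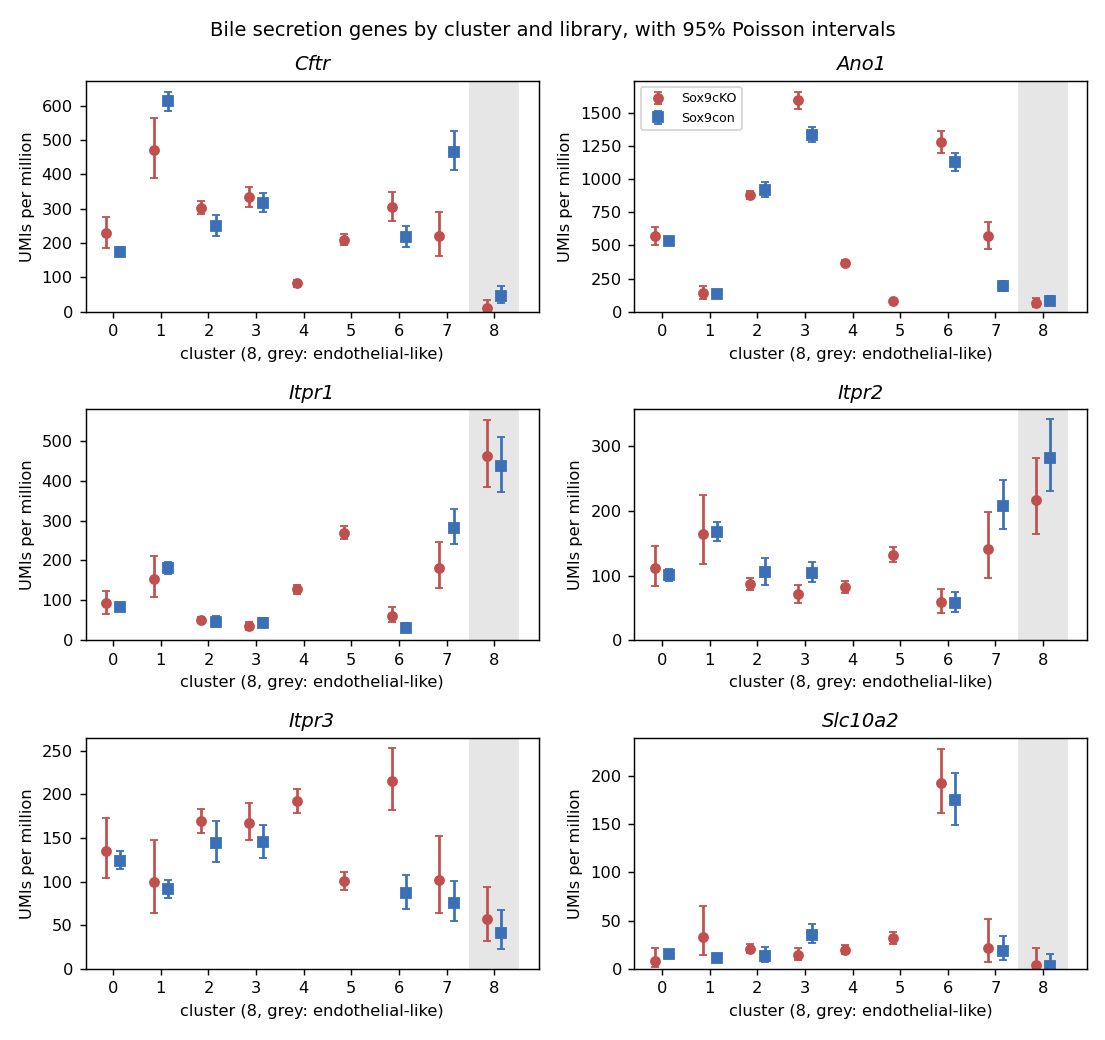
Levels of 6 members (y axes, CPM within the cluster) in clusters 0 to 7, biliary, and 8, endothelial-like with a grey ground (x axes), for the Sox9cKO library (red circles) and the Sox9con library (blue squares) with 95% Poisson intervals; clusters with fewer than 50 cells of a library are left out. Ano1 peaks in clusters 3 and 6, Slc10a2 in cluster 6, Cftr in cluster 1, and Itpr1 in clusters 5 and 7 and in the endothelial-like cells.

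Most biliary cells held 1 or 2 of the members. At 2000 UMIs a cell, 17.9% of Sox9cKO and 16.2% of Sox9con biliary cells held none of the 10, 35.2% and 38.9% held 1, and 32.6% and 30.1% held 2. Cftr and Ano1, the chloride channels of the cyclic AMP and calcium routes, were found together in 361 Sox9cKO cells, 1.15 times the product of their shares (interval 1.03 to 1.28), and in 381 Sox9con cells, 0.875 times the product (0.790 to 0.968). With the product taken within clusters the ratios were 0.983 and 0.958. Itpr1 and Ano1 met in 122 and 159 cells, 0.596 (0.495 to 0.711) and 0.721 (0.613 to 0.842) times the product, and 0.894 and 0.907 times it within clusters.

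Cftr with Itpr1 gave 0.784 (0.631 to 0.962) in Sox9cKO and 1.20 (1.03 to 1.39) in Sox9con, and 0.934 and 1.08 within clusters. Itpr1 with Itpr2 gave 1.23 (0.985 to 1.52) and 1.28 (1.06 to 1.53), and 1.11 and 1.14 within clusters. Itpr3 with Ano1 gave 1.11 in both, with intervals of 0.995 to 1.23 and 0.985 to 1.25, and 1.03 and 1.05 within clusters. For these named pairs the ratios were nearer 1 within clusters. That did not hold for all of the 36 pairs of 9 members: in Sox9cKO, Cftr with Slc4a2 gave 0.879 and 0.830 within clusters, Cftr with Slc10a2 gave 0.781 and 0.756, and Slc4a2 with Slc10a2, in 1 cell, gave 0.157 and 0.153. Cells share a library, so these intervals are no measure of the spread between animals.

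For the members with at least 1000 UMIs, the genes whose levels were most alike over the 14 units, among 4596 genes, were Klf7, Chdh and Osbpl9 for Cftr (r 0.89, 0.86 and 0.86). They were Tenm3, Abcc5 and Itih5 for Itpr1 (0.97, 0.96 and 0.95), and Shank2, Dleu2 and Luc7l3 for Itpr2 (0.94 each). For Itpr3 they were Plet1, Rps6ka1 and Fgd6 (0.92, 0.89 and 0.89), and for Ano1 Fam3d, Myof and Ercc6l2 (0.98, 0.97 and 0.97).

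The genes around the members were taken from lists of 100 partners, of which 61 reached 200 UMIs, 3 were at least 2-fold higher and 2 at least 2-fold lower in the library labelled Sox9cKO, against 2.20% and 1.80% of all genes tested. Among 23 chloride and bicarbonate partners 1 was lower and none higher: Kcnn4, a calcium-activated potassium channel that drives chloride exit, at 191 against 441 CPM (wells 181 to 206 against 326 to 557), a log2 ratio of -1.21 (-1.27 to -1.14). Of 2 other water channels tested, Aqp5 was lower at 66 against 158 UMIs, -1.49 (-1.94 to -1.08), with overlapping wells. Among 10 genes of the cyclic AMP arm Rapgef4, an exchange factor opened by cyclic AMP, was higher at 32.7 against 15.9, 1.03 (0.79 to 1.28).

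None of 17 genes of the calcium arm was 2-fold apart. Among 9 genes of bile acid and sugar handling the efflux pumps Abcc2 (67.0 against 27.4, log2 ratio 1.29) and Abcc4 (319 against 119, 1.43) were higher, with wells that did not overlap. Cluster 5, nearly all of it Sox9cKO cells, held Abcc2 at 176 and Rapgef4 at 86.4, and clusters 4 and 5 held Abcc4 at 472 and 394. With equal weight of the clusters that both libraries filled, 0 partners were 2-fold higher. List medians of the log2 ratio were -0.05, -0.49, 0.08, 0.15 and -0.10 for the chloride and bicarbonate, water, cyclic AMP, calcium and bile acid lists, beside -0.07 for all genes.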

How the data were processed

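Whole-number UMI counts per cell and gene were deposited by the authors for each library, with a cell table, per the file headers. The submitters' processing notes name GRCm39, and the aligner, annotation release, strand use and handling of introns are not given in the sources used here. Cells were kept at 500 or more genes, 1000 or more UMIs and at most 15% mitochondrial UMIs, leaving 2712 and 3505. Scrublet, through scanpy 1.11.5, marked 1 and 2 doublets, too few to have worked. Clusters came from 2000 variable genes, 30 components, 15 neighbours and Leiden resolution 0.5, and were named from 10 marker lists (at least 3 markers at 50 CPM). A cluster was left unnamed where all 10 leading genes were at least 6 log2 units up and none was a marker of its class. CPM values are the counts scaled to the UMIs of the cells summed. Log2 ratios added 0.5 counts, and a count of 0 was bounded by 3 counts. edgeR 4.0.16 supplied the alternative scaling factors. Ratio and interval code was tested on simulated data. Named genes were all members, partner genes 2-fold apart, and the 3 most similar genes for members with 1000 UMIs. The members and lists were chosen with earlier results of these data known.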

Additional observations from a re-analysis of the deposited data

Results flagged for a closer look

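Itpr2 stood at 2552 CPM in 17 Sox9cKO cells and at 2869 in 11 Sox9con cells of an unnamed cluster led by Gnat3, the taste-type G protein subunit, and Rgs13. These cells had 9 of the 10 biliary markers at 50 CPM or more, but the rule for unnamed clusters left them out of the biliary cells. Itpr2 drew attention there as a signal in cells that no biliary comparison used. Its 257 and 97 UMIs in them are not part of the 97.2 and 121 CPM given for biliary cells. Over all kept cells, endothelial-like ones included, its log2 ratio of Sox9cKO over Sox9con was -0.20. Over 16 sets of wells of a member in a library, 0 held a well set apart from the rest by Dixon's criterion.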

How the results depend on the processing

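No paired analysis was possible because each genotype has 1 library. None of the members tested was 2-fold apart, and the count was 1 (Aqp1) over all kept cells, with a minimum of 100 UMIs and with a minimum of 1. The members' median log2 ratio was 0.17 with median-ratio factors and 0.17 with cells thinned to 2000 UMIs. Partner genes higher in Sox9cKO numbered 5 with median-ratio factors, 6 with a minimum of 1 UMI and 0 with equal cluster weight. Those lower numbered 1 under the stricter cell filter, 1 when thinned, 4 with a minimum of 100 UMIs, 11 with a minimum of 1, and 1 to 2 with 1 well left out. The partner median was 0.13 with TMM factors, 0.19 with median-ratio factors and -0.053 with a minimum of 1 UMI. Of the members' single ratios 142 stayed within their counting interval and 29 did not. Across settings Cftr ran from -0.66 to -0.13, Aqp1 from -2.63 to -1.47, Itpr3 from 0.34 to 0.75, Itpr1 from -0.22 to 0.44 and Slc4a2 from -0.39 to 0.20. The causes were not tested. The biliary and endothelial-like counts of 4 and 3 members moved little under the alternatives run, but the 3 did not hold in all. With cells thinned to 2000 UMIs, Itpr2 in Sox9cKO stood at 97.8 CPM in biliary and 187.5 in endothelial-like cells, less than 2-fold apart. Depth limits Sctr, Aqp1 and the endothelial-like levels, which rest on few UMIs.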

Other observations

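Cftr counts varied widely from cell to cell. The highest Sox9cKO cell held 63 Cftr UMIs, the next 27, and the highest Sox9con cell held 34. Cells with 10 or more Cftr UMIs numbered 41 in the Sox9cKO library, 16 of them in cluster 5 and 11 in cluster 2, and 56 in the Sox9con library, 37 of them in cluster 1. The top 1% of cells held 14.2% and 13.3% of the Cftr UMIs. At 2000 UMIs a cell, the variance of the Cftr count was 2.27 and 2.85 times its mean, which was 0.456 and 0.669. The median of genes with a mean of at least 0.05 was 1.13 and 1.14, and these genes were not matched to Cftr on the mean. Ano1 gave a variance of 3.02 and 2.71 times its mean, and Itpr3 of 1.17 and 1.21. Without thinning, 285 and 153 cells held 10 or more Ano1 UMIs, and no cell held above 8 Itpr3 UMIs. The counts of cells with 10 or more UMIs, those of Cftr included, are not corrected for depth. Median depths of the biliary cells were 5125.5 UMIs in Sox9cKO and 3226.5 in Sox9con.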
